A study of Homo sapiens with 14 samples.

Results

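The 9 genes described here, ITGA6, ITGB4, ITGA3, ITGB1, LAMA3, LAMB3, COL17A1, DST and PLEC, encode most of the machinery that fixes a basal squamous cell to its basement membrane. They were taken by gene name from the count files, which hold 59471 gene names (39032 with any count). RNA-seq was performed on SCC23, an established head and neck squamous cell carcinoma (HNSCC) cell line. KMT2D-WT cells had received Cas9 with a guide against LacZ, a bacterial gene that human cells lack, while the KO lines, KO1 and KO2, had received Cas9 with guides against KMT2D, which encodes a histone H3 lysine 4 methyltransferase. The cells were sorted for GFP from the Cas9 plasmid, and the methods describe no cloning of single cells. Cells were kept in high-glucose medium (+Glc) or deprived of glucose for 6 h (-Glc). Per condition there were 3 KMT2D-WT and 4 KMT2D-KO libraries from 2 experiments, 14 in all: experiment 1 held 1 KMT2D-WT library and 1 of each line, and experiment 2 held 2 KMT2D-WT libraries and 1 of each line.

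A hemidesmosome is a rivet between the keratin filaments inside a basal epithelial cell and the basement membrane outside it. Its core is integrin α6β4 (ITGA6 with ITGB4), which binds laminin-332 in the matrix, stands beside collagen XVII (COL17A1), and is linked to keratins by the plakins plectin (PLEC) and BP230, an epithelial product of DST. Laminin-332 is a trimer whose α3 and β3 chains come from LAMA3 and LAMB3, and integrin α3β1 (ITGA3 with ITGB1) binds the same ligand but connects to actin through focal adhesions. In squamous carcinomas these genes are known both for anchorage and, once the rivets are taken apart, for migration on laminin-332.

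Promoter sequence was at hand for 6 of the 9 members in the RefSeq table of GRCh38.p14 (LAMA3, LAMB3, COL17A1, ITGA6, ITGB1 and DST). It is shown for 3 of them whose RNA behaved differently, COL17A1 being lower in every KMT2D-KO library, LAMA3 differing between the lines and LAMB3 doing neither. Each run is the 250 bases before a transcript start, 5′ to 3′ on the gene's strand. Capitals mark TGANTCA, with any base at N, a loose form of the AP-1 motif (TGACTCA or TGAGTCA). The loose form reads alike on both strands. The LAMA3 window, chr18:23872770-23873019 on the plus strand, lies inside the gene, before the start of its shorter transcript. The LAMB3 window is chr1:209652426-209652675 and the COL17A1 window chr10:104085881-104086130, both on the minus strand, and none of the 3 windows overlaps an exon of GENCODE 44.
LAMA3: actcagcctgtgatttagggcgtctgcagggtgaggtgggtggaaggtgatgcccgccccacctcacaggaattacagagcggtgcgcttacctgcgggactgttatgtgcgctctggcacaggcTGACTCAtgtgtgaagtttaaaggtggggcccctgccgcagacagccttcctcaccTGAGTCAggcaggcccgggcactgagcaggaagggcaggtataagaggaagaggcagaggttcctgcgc
LAMB3: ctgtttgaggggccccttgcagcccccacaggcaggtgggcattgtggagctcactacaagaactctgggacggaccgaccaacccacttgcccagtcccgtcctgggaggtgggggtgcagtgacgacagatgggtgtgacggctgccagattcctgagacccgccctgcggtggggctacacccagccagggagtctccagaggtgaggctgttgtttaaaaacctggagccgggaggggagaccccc
COL17A1: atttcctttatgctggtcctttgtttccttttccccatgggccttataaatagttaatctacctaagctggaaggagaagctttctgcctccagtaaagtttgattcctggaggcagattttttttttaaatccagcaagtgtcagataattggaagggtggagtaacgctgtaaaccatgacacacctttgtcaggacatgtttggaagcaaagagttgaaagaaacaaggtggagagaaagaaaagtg
LAMA3 held 2 matches, beginning 125 and 69 bases before the start, while COL17A1 and this LAMB3 window held none. An alternative LAMB3 start, at 209651374, had 1 match, TGACTCA, beginning 67 bases before it. Among 35116 promoter windows of this length, 6.57% held TGANTCA with any base at N, against 2 of the 12 windows of these genes. These are letter matches and no binding was measured.

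Some libraries stood apart or went against their labels. Library totals ran from 15669154 to 62968057 counts. For experiment 2 in +Glc cells (4 libraries), each mate of a read pair was counted on its own, so that many of their fragments count more than once. KMT2D RNA, in CPM (counts scaled to a common library size, after TMM over all 14 libraries), was 271 to 274 in +Glc KMT2D-WT cells, 175 and 187 in KO1, and 320 and 371 in KO2, so that the lines lay on opposite sides of KMT2D-WT cells. In -Glc cells it was 234 to 239 in KMT2D-WT and 19.9 to 189.9 in KMT2D-KO libraries. The paper reports the knockout in SCC23 cells from sequencing of genomic DNA and western blot of the protein, which these RNA levels do not measure. It also measured KMT2D mRNA in these cells by qRT-PCR, but its text gives no value for it. The -Glc KO1 library of experiment 1 had the lowest KMT2D, and against the KO2 library beside it the median log2 difference was 0.17 over genes with under 2000 exonic bases and -0.24 over genes with 10000 or more. The -Glc library of experiment 2 labelled KO1 had 3.2 CPM of LAMA4, against 20.7 to 25.4 CPM in the 3 other KO1 libraries. LAMA4 was 1.9 to 3.8 CPM in the KO2 and 2.1 to 3.7 CPM in the KMT2D-WT libraries. MMP14, a protease gene, was 18.2 CPM in it and 18.6 to 25.1 CPM in the KO2 libraries. In the other KO1 libraries MMP14 was 0.6 to 1.9 CPM, and in KMT2D-WT 79.7 to 111 CPM. The library thus resembled KO2, and the lines were not compared in -Glc cells. Both library pairs of -Glc experiment 2 were very alike, with a chi-square per gene of 1.65 in KMT2D-WT and 1.71 in KMT2D-KO. The other pairs had 23.0 to 72.7, but all except a KMT2D-WT pair (25.3) set KO1 against KO2. In the +Glc pairs of experiment 2 (25.3 and 72.7) each mate was also counted on its own. The alike pairs exceeded sampling noise, and their libraries were kept as separate samples. Results are given with and without these libraries where that matters. Nothing states that libraries of 1 experiment came from separate cultures, so p-values measure the spread between these libraries, which may be partly technical. Of 10 squamous epithelial markers, 8 to 10 were above 1 CPM in each library (summed level 962 to 3518 CPM), and of 10 markers of immune, endothelial, stromal and melanocytic cells 2 to 4 were, with a summed level of 10.1 to 27.9 CPM.

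All 9 members passed the filter on low counts in every comparison. Levels between genes were compared as CPM per kilobase of exons, which understates genes with long exons that the cell does not use. In +Glc KMT2D-WT cells the order ran from ITGB4 (mean 207 CPM per kb) through ITGA3 (160), COL17A1 (154), LAMB3 (111), PLEC (94.0), ITGA6 (86.8) and ITGB1 (28) to LAMA3 (12.5) and DST (11.4). ITGB4 lay above ITGA3, COL17A1 above LAMB3, and ITGA6 above ITGB1 in every library, while the ranges of the other neighbours overlapped. In +Glc KMT2D-KO cells ITGB4 was still first at 117 CPM per kb, but its range overlapped that of PLEC (98.0), and ITGA3 (86.9) and COL17A1 (79.1) had moved behind LAMB3 (96.5) and ITGA6 (89.7) by their means, with overlapping ranges.

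**Figure D1:**
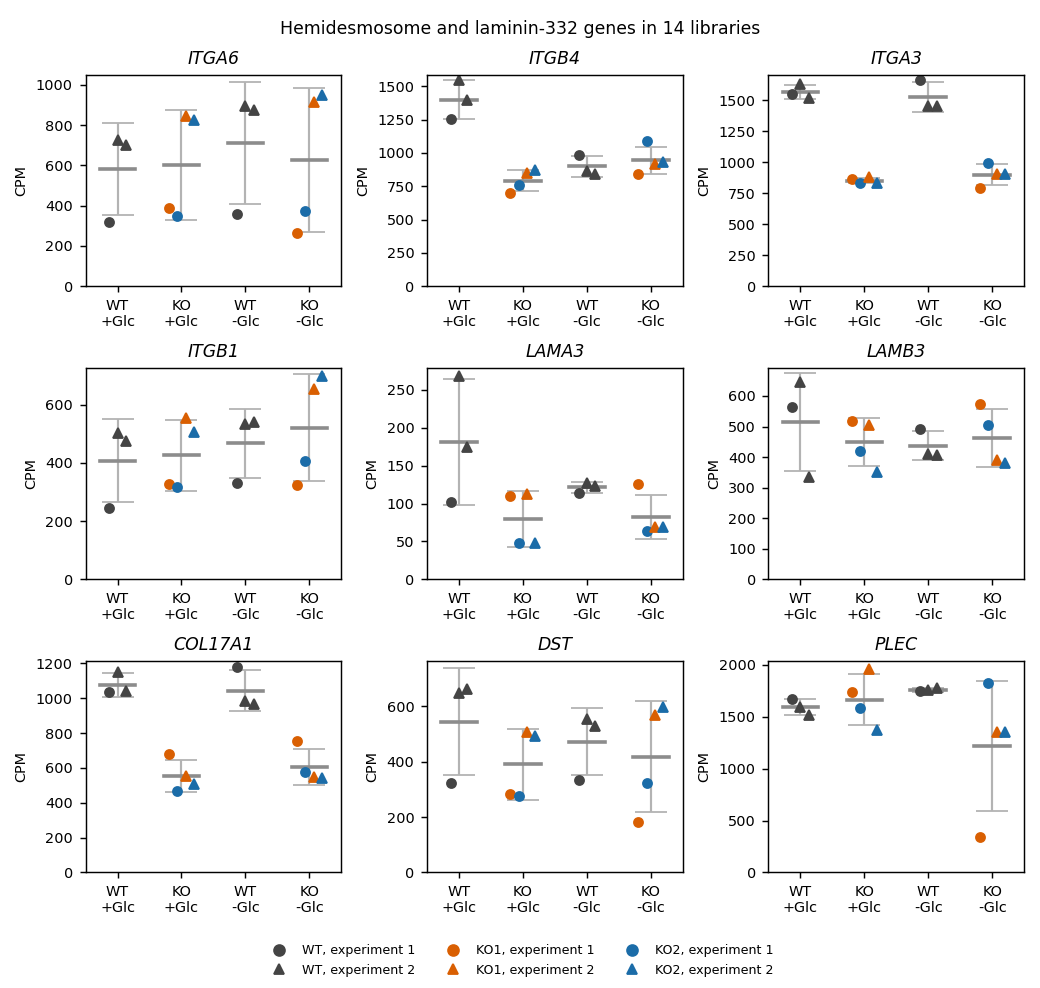
Each panel plots 1 gene in CPM after TMM scaling, from 0, in KMT2D-WT and KMT2D-KO libraries with (+Glc) and without (-Glc) glucose. Points are libraries (colour, line; circle, experiment 1; triangle, experiment 2), and grey bars are the mean and SD of each group (n = 3 or 4). ITGA3 and COL17A1 of KMT2D-KO libraries lie below all KMT2D-WT libraries in both conditions and ITGB4 only in +Glc, while ITGA6, ITGB1 and DST separate by experiment.

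Loss of KMT2D was compared with KMT2D-WT cells in each condition to ask which anchoring genes depend on it. In +Glc cells 4 of the 9 members were lower in KMT2D-KO cells (ITGA3, ITGB4, COL17A1 and DST) and 0 were higher by edgeR's quasi-likelihood test at a Benjamini-Hochberg adjusted p under 0.05. Over all 20423 genes tested, 11.7% were lower and 13% higher. Beside the 0 higher members, 7 of 9 had an unadjusted p under 0.05 in either direction, ITGA6 and ITGB1 being higher among them, and DESeq2 called ITGA6 higher. Over all genes, 7433 of 20423 had such an unadjusted p by edgeR. The median log2 fold change of the members was -0.30, against 0.02 over all genes. In -Glc cells 2 members were lower (ITGA3 and COL17A1) and 1 higher (ITGB1), where 24.9% of the 16782 genes tested were lower and 25.9% higher, and the members' median was -0.11 against 0.0029 over all genes. Every KMT2D-KO library lay below every KMT2D-WT library for 3 members in +Glc cells (10.6% of all genes) and 2 in -Glc cells (19.2%), and above for 0 members in either (9.37% and 16.2% of all genes). When the KMT2D-KO effects of the conditions were compared, 1 member was called, ITGB4, in the positive direction, and 0 in the negative, where 4.73% and 6.54% of 18678 genes were.

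**Figure D2:**
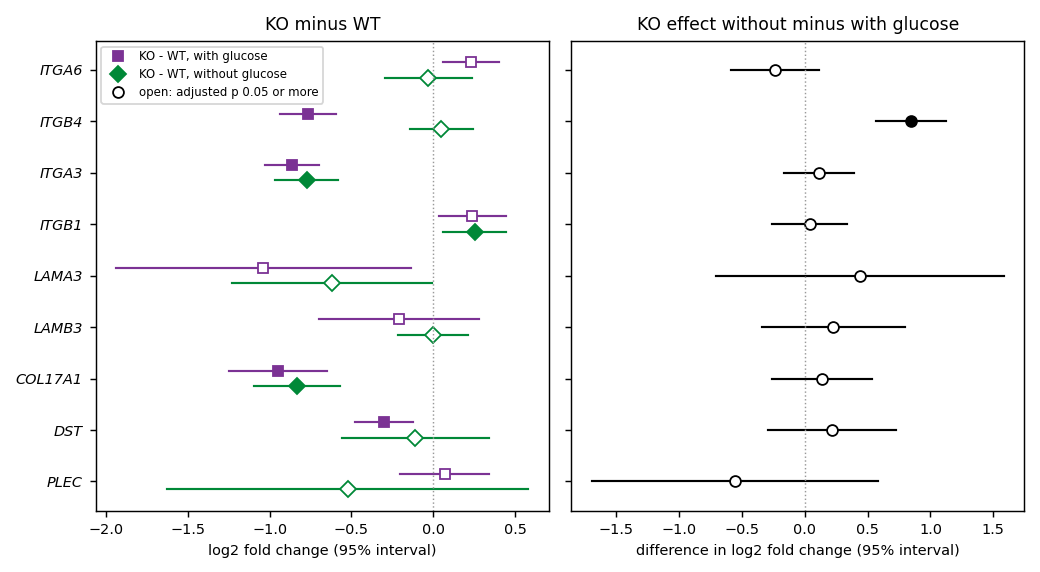
Left, log2 fold change of KMT2D-KO over KMT2D-WT cells with 95% interval for each gene, squares with glucose and diamonds without. Right, the difference between these effects, tested in 1 fit of all 14 libraries. Filled symbols have an adjusted p under 0.05; ITGB4 is the only filled one on the right, at 0.84.

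ITGB4, the β4 chain whose long cytoplasmic tail recruits the plakins (chr17:75721328-75757818 of GRCh38), showed the condition-dependent pattern. With glucose it was 1254, 1546 and 1398 CPM in the KMT2D-WT libraries, 696 and 846 CPM in KO1 and 756 and 872 CPM in KO2. All 4 KMT2D-KO libraries were below the lowest KMT2D-WT library, in both lines and in both experiments. For ITGB4 the log2 fold change was -0.77 (standard error (SE) 0.08, adjusted p = 0.000224 by edgeR), and the KMT2D-KO mean was 57.9% of KMT2D-WT in experiment 1 and 58.4% in experiment 2. Without glucose it was 987, 866 and 843 CPM in KMT2D-WT cells and 842, 1088, 917 and 933 CPM in KMT2D-KO cells. These groups overlapped, and the log2 fold change was 0.05 (95% interval -0.14 to 0.25, adjusted p = 0.637 by edgeR). The change between conditions was 0.84 on the log2 scale (SE 0.13, 95% interval 0.57 to 1.12, adjusted p = 0.00246 by edgeR).

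Followed along each line, ITGB4 moved toward a common level on glucose deprivation. In KMT2D-WT cells the log2 difference of -Glc over +Glc was -0.35 in experiment 1 and -0.78 in experiment 2, whereas it was 0.52 and 0.10 in KO2 and 0.27 in KO1 of experiment 1. For KO1 of experiment 2 it was 0.12 by the labels, but the -Glc library there resembled KO2, so this value may not follow 1 line. The direction was thus downward in KMT2D-WT and upward in KMT2D-KO cells in each experiment, including experiment 1, in which all libraries were counted alike. The change between conditions was called when each of the 14 libraries was left out in turn, with the both-mate counts halved and with the alike pairs summed. Without experiment in the fit, that is with no replicate block, it was 0.89 and missed the limit (adjusted p = 0.0705 by edgeR). Without the -Glc KO1 library of experiment 1, ITGB4 was called slightly higher in -Glc KMT2D-KO cells (log2 fold change 0.11, adjusted p = 0.0011 by edgeR). That fit called 74.4% of all genes, and the KMT2D-KO libraries left in it are KO2 or resemble it.

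**Figure D3:**
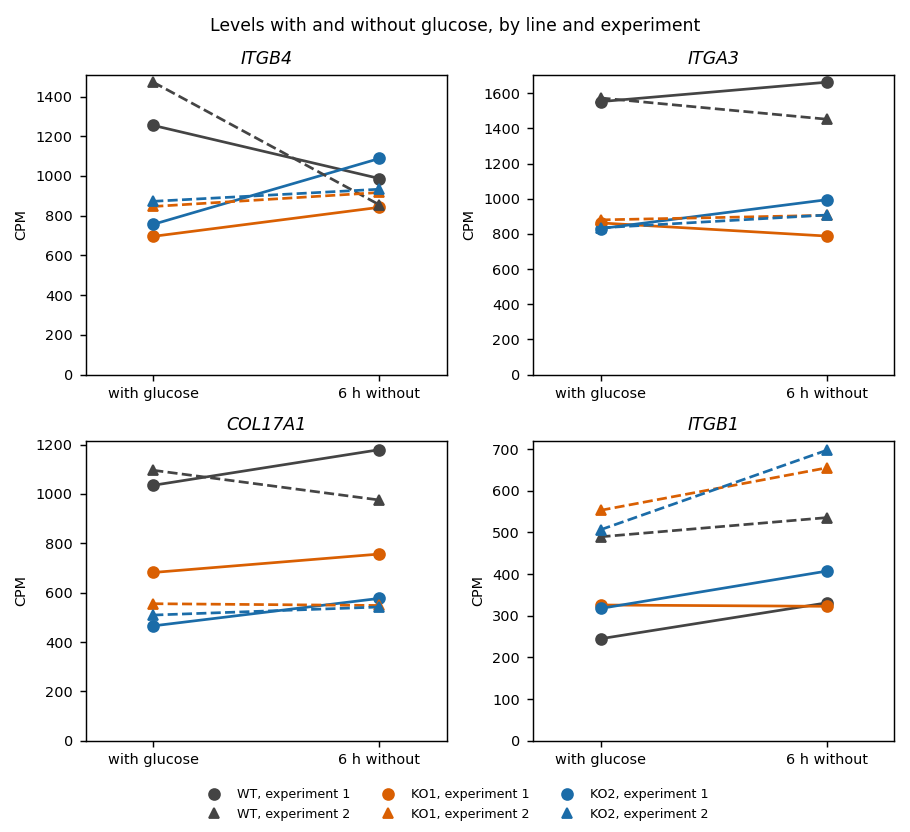
Mean level in CPM, from 0, with glucose and after 6 h without it, for ITGB4, ITGA3, COL17A1 and ITGB1. Each line joins the conditions for 1 cell line, as labelled, in 1 experiment (colour, line; solid and circle, experiment 1; dashed and triangle, experiment 2), and the -Glc end of KO1 in experiment 2 is the library that resembles KO2. ITGB4 falls in both KMT2D-WT pairs and rises in all 4 KMT2D-KO pairs, while ITGA3 and COL17A1 stay lower in KMT2D-KO cells at both ends.

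ITGA6, the partner of β4 and the chain that gives α6β4 its laminin binding (chr2:172427354-172506459), did not share the fall. With glucose it was 320, 725 and 703 CPM in KMT2D-WT cells, 387 and 846 CPM in KO1 and 346 and 827 CPM in KO2. The groups overlapped because experiment 2 lay far above experiment 1, by 1.16 to 1.54 on the log2 scale in the 4 combinations of genotype and condition, but within each experiment both KMT2D-KO libraries were above KMT2D-WT. ITGA6 had a log2 fold change of 0.23 (SE 0.08, adjusted p = 0.0536 by edgeR), just outside the limit, and without glucose it was -0.03 (95% interval -0.30 to 0.24). The ratio of ITGA6 to ITGB4, each per kilobase, was 0.257 in KMT2D-WT and 0.560 and 0.462 in KMT2D-KO libraries of +Glc experiment 1. In +Glc experiment 2 it was 0.473 and 0.506 in KMT2D-WT and 1.01 and 0.955 in KMT2D-KO libraries. Without glucose the experiment 2 libraries of both genotypes lay together, between 1.01 and 1.05. In -Glc experiment 1 the ratio was 0.367 in KMT2D-WT and, slightly lower, 0.314 and 0.348 in KMT2D-KO libraries.

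ITGA3, the α3 chain of the second laminin-332 receptor (chr17:50055968-50090481), was the most evenly lowered member. With glucose it was 1553, 1629 and 1518 CPM in KMT2D-WT cells, 863 and 880 CPM in KO1 and 830 and 835 CPM in KO2. Without glucose it was 1663, 1453 and 1452 CPM in KMT2D-WT cells and 788, 995, 906 and 907 CPM in KMT2D-KO cells. The genotypes were far apart in both conditions, and the 4 +Glc KMT2D-KO libraries varied little (852 ± 23.6 CPM, SD, n = 4). For ITGA3 this gave a log2 fold change of -0.86 with glucose (SE 0.07, adjusted p = 0.000113 by edgeR) and -0.77 without (SE 0.08, adjusted p = 0.000403 by edgeR). It was called lower in all 20 alternatives with glucose and all 18 without. The effect did not differ detectably between conditions (0.11, 95% interval -0.16 to 0.39) or between lines (KO1 minus KO2 0.07, 95% interval -0.09 to 0.23).

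ITGB1, the β1 chain that pairs with α3 and with many other α chains (chr10:32887273-33005792), tended the other way. Without glucose it was 331, 532 and 539 CPM in KMT2D-WT cells and 323, 407, 655 and 697 CPM in KMT2D-KO cells. Experiment set most of the level, and in experiment 2 both KMT2D-KO libraries were above both KMT2D-WT libraries while in experiment 1 KMT2D-WT lay between the lines. The log2 fold change was 0.25 (SE 0.08, adjusted p = 0.0378 by edgeR), but this call was lost without any 1 of 6 of the 7 libraries, kept only without the KO1 library of experiment 1, and lost with no replicate block (0.15, adjusted p = 0.753 by edgeR) or with the alike pairs summed. With glucose the log2 fold change was 0.24 (SE 0.09, adjusted p = 0.0873 by edgeR), and the effects of both conditions could not be separated (difference 0.04, 95% interval -0.26 to 0.34). The ratio of ITGA3 to ITGB1 per kilobase in +Glc cells was 9.42 in KMT2D-WT and 3.93 and 3.88 in KMT2D-KO libraries of experiment 1. In experiment 2 it was 4.81 and 4.74 against 2.36 and 2.45. It was therefore lower in KMT2D-KO cells within each experiment, as it was in -Glc cells (7.46 against 3.63 and 3.63, and 4.06 and 4.0 against 2.05 and 1.93).

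**Figure D4:**
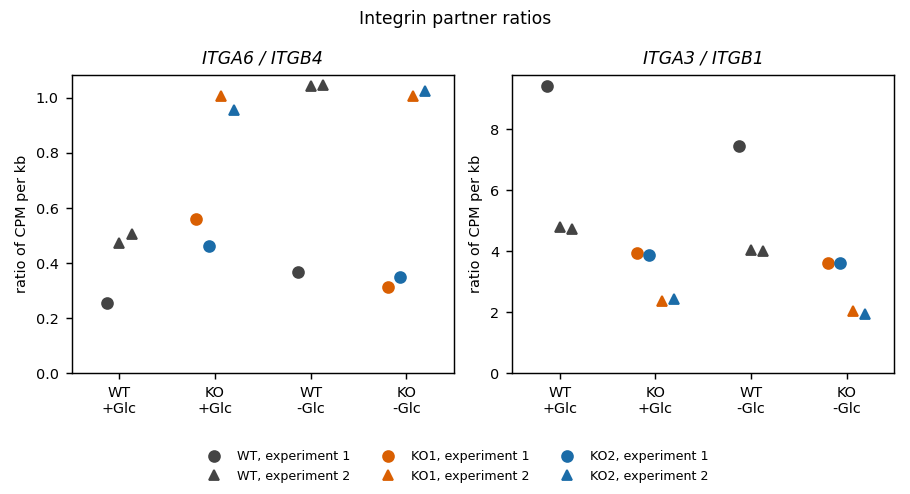
Ratio of CPM per kilobase, from 0, of ITGA6 to ITGB4 and of ITGA3 to ITGB1 in each library (colour, line; circle, experiment 1; triangle, experiment 2). Within each experiment the ITGA6 to ITGB4 ratio is higher in +Glc KMT2D-KO than in +Glc KMT2D-WT libraries, and the ITGA3 to ITGB1 ratio is lower in KMT2D-KO libraries in both conditions.

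The laminin-332 chains LAMA3 and LAMB3 varied by line and by library. LAMA3, the α3 chain that carries the integrin-binding domain (chr18:23689453-23956222), was 101.8, 268 and 175 CPM in +Glc KMT2D-WT libraries, 111 and 112 CPM in KO1 and 47.5 and 48.5 CPM in KO2. KO2 was below every KMT2D-WT library, while KO1 lay beside the KMT2D-WT library of experiment 1 and below both of experiment 2. Taking the lines together, LAMA3 had a log2 fold change of -1.04 (SE 0.40, adjusted p = 0.0915 by edgeR), for KO2 alone it was -1.72 (adjusted p = 9.75e-06 by edgeR), and for KO1 alone it was -0.50 (adjusted p = 0.0915 by edgeR). The difference KO1 minus KO2 was 1.23 (SE 0.23, adjusted p = 0.0018 by edgeR). Without glucose LAMA3 was 114, 127 and 123 CPM in KMT2D-WT cells and 126, 63.4, 69.3 and 69.3 CPM in KMT2D-KO cells, and the log2 fold change was -0.62 (SE 0.26, adjusted p = 0.0839 by edgeR). The library at 126 CPM was the KO1 library of experiment 1. Without it the log2 fold change was -0.86 and LAMA3 was called, in a fit that called 74.4% of all genes and in which the 3 KMT2D-KO libraries left are KO2 or resemble it.

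LAMB3, the β3 chain (chr1:209614870-209652425), was not called in the 5 comparisons fitted, although 3 of 15 alternatives between the lines and 2 of 18 for KMT2D-KO without glucose called it. With glucose it was 565, 644 and 334 CPM in KMT2D-WT libraries, 518 and 504 CPM in KO1 and 420 and 352 CPM in KO2. The pair of KMT2D-WT libraries of experiment 2 spanned the whole range of the KMT2D-KO libraries, and the log2 fold change was -0.21 (95% interval -0.70 to 0.28). These 2 libraries also differed in LAMA3, above, with the same library the higher for both genes. Without glucose LAMB3 was 493, 411 and 408 CPM in KMT2D-WT cells and 575, 506, 389 and 381 CPM in KMT2D-KO cells (log2 fold change -0.0033, 95% interval -0.22 to 0.21). The ratio of LAMA3 to LAMB3 per kilobase was 0.058 to 0.168 in +Glc KMT2D-WT and 0.036 to 0.071 in +Glc KMT2D-KO libraries, which overlap. Without glucose it was 0.074 to 0.099 in KMT2D-WT and 0.040 to 0.070 in KMT2D-KO libraries, which do not.

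**Figure D5:**
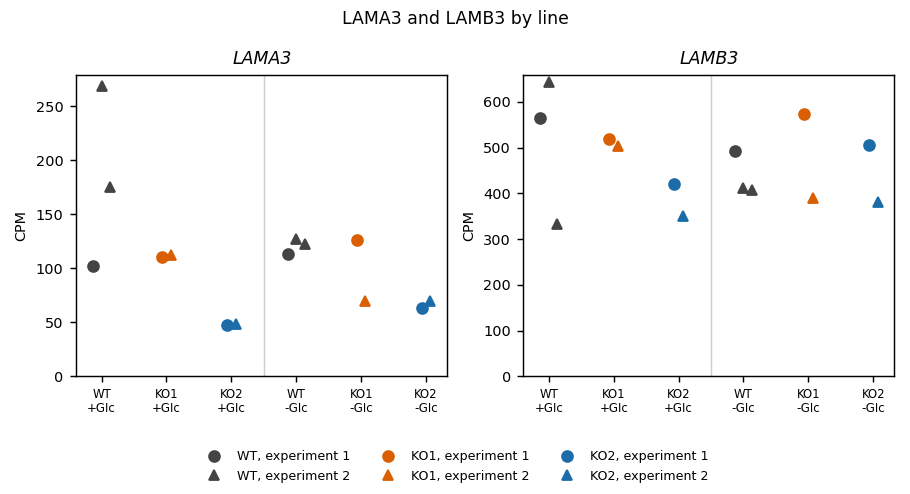
Levels of LAMA3 and LAMB3 in CPM, from 0, by line and condition (circle, experiment 1; triangle, experiment 2). The +Glc KO2 libraries have the lowest LAMA3 at 47.5 and 48.5 CPM, and the pair of +Glc KMT2D-WT libraries of experiment 2 is far apart for both genes. The -Glc KO1 library of experiment 2 is the one whose label is in doubt.

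COL17A1, the transmembrane collagen that binds α6β4, plectin and BP230 (chr10:104031286-104085880), was 1035, 1152 and 1039 CPM in +Glc KMT2D-WT libraries, 682 and 555 CPM in KO1 and 466 and 509 CPM in KO2. Without glucose it was 1179, 983 and 967 CPM in KMT2D-WT cells and 756, 577, 548 and 542 CPM in KMT2D-KO cells. No KMT2D-KO library reached the lowest KMT2D-WT library in either condition, and the KO1 library of experiment 1 was the highest of its group in both. The log2 fold change was -0.95 with glucose (SE 0.13, adjusted p = 0.0012 by edgeR) and -0.83 without (SE 0.11, adjusted p = 0.00099 by edgeR), and COL17A1 was called lower in all 20 and all 18 alternatives. The effects of both conditions differed by 0.14 (95% interval -0.26 to 0.54, not called). Within experiments the KMT2D-KO mean was 55.4% and 48.6% of KMT2D-WT with glucose and 56.5% and 55.9% without.

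The plakins gave weaker differences. DST (chr6:56457987-56954649), whose reads pool the epithelial BP230 with longer neuronal and muscle forms, was 322, 649.5 and 662 CPM in +Glc KMT2D-WT libraries, 283 and 507 CPM in KO1 and 278 and 493 CPM in KO2. Experiments differed by far more than genotypes, and within each both KMT2D-KO libraries were below KMT2D-WT. For DST it came to -0.30 on the log2 scale (SE 0.08, adjusted p = 0.0211 by edgeR), and the call was lost without any 1 of the 4 libraries of experiment 2 (adjusted p = 0.06 to 0.0832 by edgeR), in experiment 2 alone, and with no replicate block (-0.46, adjusted p = 0.531 by edgeR). Without glucose DST was 334, 554 and 530 CPM in KMT2D-WT cells and 181, 324, 570 and 597 CPM in KMT2D-KO cells, with a log2 fold change of -0.11 (95% interval -0.56 to 0.34). Without the KO1 library of experiment 1, which had the 181 CPM, the change between conditions was called for DST as well (0.39, adjusted p = 0.0075 by edgeR). That fit called 22.5% of all genes.

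PLEC, which ties β4 to keratin (chr8:143915153-143976734), was 1676, 1595 and 1518 CPM in +Glc KMT2D-WT libraries, 1735 and 1960 CPM in KO1 and 1588 and 1377 CPM in KO2. KMT2D-WT lay between the lines in experiment 2 and the log2 fold change over both was 0.07 (95% interval -0.20 to 0.34). Without glucose it was 1748, 1754 and 1783 CPM in KMT2D-WT cells and 339, 1823, 1357 and 1356 CPM in KMT2D-KO cells. The 339 CPM came from the KO1 library of experiment 1, in which KMT2D was also low. Between it and the KO2 library beside it PLEC differed by -2.43 on the log2 scale and KMT2D by -3.22. The median was -0.24 over genes of 10000 or more exonic bases. Of the other members that long, DST (-0.84) and ITGB1 (-0.33) were lower in it. LAMA3 was higher (0.98), as it was in +Glc cells of experiment 1 (111 CPM in KO1 and 47.5 CPM in KO2). The log2 fold change was -0.52 with all libraries (95% interval -1.63 to 0.58) and -0.25 without that library (adjusted p = 0.00069 by edgeR), where 74.4% of all genes were called. Whether library quality has a part in the PLEC value was not tested.

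The lines were compared directly in +Glc cells. KO1 was higher than KO2 for 3 members (LAMA3 by 1.23, COL17A1 by 0.35 and PLEC by 0.33 on the log2 scale; adjusted p = 0.0018, 0.0286 and 0.0216 by edgeR) and lower for 0, where 7.89% of genes were higher and 7.37% lower. Of the 9 members, 4 had an unadjusted p under 0.05, LAMB3 being the fourth (0.42, adjusted p = 0.168 by edgeR), and DESeq2 also called 0 lower. Over all genes, 5389 of 20423 had an unadjusted p under 0.05 by edgeR. With no replicate block 0 members were called, and without the KO2 library of experiment 2, which leaves 1 KO2 library assumed to vary like the others, 0 were called. Glucose deprivation itself was tested in experiment 1, with line as a block. None of the 9 members was called higher or lower by edgeR (0 of 9 at an unadjusted p under 0.05, and 0 by DESeq2), where 0.479% and 0.622% of 16066 genes were. Of those 16066 genes, 3111 had an unadjusted p under 0.05 by edgeR. The widest interval was that of PLEC (-0.70, 95% interval -1.58 to 0.19), and for the other 8 members the differences lay between -0.17 and 0.21. This fit gives 1 difference for all lines. For ITGB4 (0.10) it pooled opposite directions, -0.35 in KMT2D-WT, 0.27 in KO1 and 0.52 in KO2.

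Other genes of the anchoring machinery were read from lists. For comparison, 11.7% of all genes were lower and 13% higher in +Glc KMT2D-KO cells, and 24.9% and 25.9% in -Glc cells. Of 5 direct partners (CD151, COL7A1, KRT5, KRT14 and FERMT1), 2 were higher and 1 lower in +Glc KMT2D-KO cells (median log2 fold change 0.29) and 3 higher in -Glc cells (median 0.47). CD151, a tetraspanin that binds α3β1 and α6β4, was higher in both (0.29, adjusted p = 0.049, and 0.47, adjusted p = 0.0027 by edgeR), as was FERMT1, the kindlin that activates β1 integrins (0.41 and 0.58). KRT14, the basal keratin to which hemidesmosomes attach, was lower with glucose (-1.74, SE 0.34), and its -Glc difference was -0.18 (SE 0.18); the change between conditions was called (1.59, adjusted p = 0.04 by edgeR). KRT5, its partner, was called higher without glucose (2.86, SE 0.79) but not with it (1.44, SE 1.14), where its level was 8.4 and 1.5 CPM in KO1, 165 and 82.4 CPM in KO2 and 13.4 to 27.3 CPM in KMT2D-WT cells. Without glucose KRT5 was 15.4 CPM in the KO1 library of experiment 1, below the 19.9 to 22.4 CPM of KMT2D-WT cells, and 177 to 225 CPM in the KO2 libraries and the library labelled KO1 that resembles KO2. Of 5 other plakins 4 were lower with glucose (median -0.51) and 2 without (median -0.62), periplakin (PPL) by -1.39 and -0.95 and envoplakin (EVPL) by -0.52 and -0.93. Desmoplakin (DSP), which serves desmosomes, was lower with glucose (-0.51, SE 0.12).

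Among 22 other integrin chains, 16 were tested with glucose, of which 5 were lower and 2 higher (median -0.28), and 12 without, of which 6 were lower and 2 higher (median -0.66). The shares over all genes were 11.7% lower and 13% higher with glucose, and 24.9% and 25.9% without. ITGA2, the α chain of a collagen and laminin receptor, was lower in both conditions (-1.36 and -1.66). ITGB8 was also lower in both (-1.44 and -1.08), and ITGA5, of the fibronectin receptor, was lower without glucose (-1.78). ITGB6, of an αv integrin that activates TGF-β, was higher in both (1.28 and 1.82). Of 21 other laminin chains and basement membrane genes, 8 of 19 tested were lower and 5 higher with glucose (median -0.27), and 7 of 18 were lower and 2 higher without (median -0.47). Among those lower, COL18A1, a basement membrane collagen, fell furthest in both (-2.23 and -1.97), followed by COL4A3 (-1.22) and NID1 (-1.13) with glucose, and by the heparan sulfate proteoglycans AGRN (-1.27) and HSPG2 (-1.21) without. COL4A3 was low, at a mean of 1.86 CPM in +Glc KMT2D-WT and 0.74 CPM in +Glc KMT2D-KO cells. The 5 higher with glucose were COL4A1 (0.36), COL4A2 (0.33), COL4A5 (0.51), COL4A6 (0.75) and LAMC3. LAMC3 was at a mean of 0 CPM in +Glc KMT2D-WT and 0.98 CPM in +Glc KMT2D-KO cells.

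Of 10 proteases linked to the cutting of laminin-332 or collagen XVII, directly or not, 9 were tested, and 3 were lower and 0 higher in each condition (medians -0.25 and -0.47). As for the lists above, 11.7% of all genes were lower and 13% higher with glucose, and 24.9% and 25.9% without. MMP14, a membrane protease that cleaves laminin-332, was 103 to 111 CPM in +Glc KMT2D-WT cells, 0.7 and 1.9 CPM in KO1 and 23.6 and 25.1 CPM in KO2 (log2 fold change -3.06, SE 0.87). The urokinase gene PLAU was lower in both conditions (-0.73 and -0.63), PLAT with glucose (-1.30) and ADAM17, which sheds collagen XVII, without (-0.47). Of 22 focal adhesion genes, 6 were higher and 6 lower with glucose (median 0.02), and 8 of 21 tested were higher and 2 lower without (median 0.09). The tensin TNS4 was higher in both (2.94 and 2.93), as was PARVB (1.14 and 1.5), with TNS3 higher with glucose (1.02) and ILK without (0.92). TNS4 and ILK were low. Mean TNS4 was 0.36 CPM in +Glc KMT2D-WT and 3.06 CPM in +Glc KMT2D-KO cells, and 0.63 and 4.97 CPM in -Glc cells. Mean ILK in -Glc cells was 1.04 CPM in KMT2D-WT and 2.17 CPM in KMT2D-KO libraries. Among the 10 squamous markers, 1 of 9 tested was lower with glucose (KRT14) and 7 were higher without (median 1.40), among them KRT5, KRT16 (2.41) and KRT17 (2.16), so that markers of the epithelial state moved with the -Glc comparison, and their part in the members' values was not tested. With glucose 5 of the 9 were lower in KO1 than in KO2 (median -1.0), where 7.37% of all genes were, and 3 of the 4 -Glc KMT2D-KO libraries are KO2 or resemble it. In these bulk RNA samples, fewer cells in a state and less RNA per cell cannot be told apart. Of the markers of other cell types, COL1A2 (2.72) and COL1A1 (1.26) were higher and ACTA2 (-1.0) lower with glucose, and COL1A1 higher without (1.33), all at low levels.

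The pattern of ITGB4 over the 14 libraries was compared with that of 14266 genes with a mean of at least 1 CPM. Most alike were CDH24 (Pearson r = 0.89 of log2 CPM, 0.88 after taking out the mean of each condition and experiment), GPR153 (0.88 and 0.85), PITPNM1 (0.88 and 0.90), AL360181.3 (0.86 and 0.84) and OSBPL10 (0.86 and 0.87). For LAMB3 they were RIPOR1 (0.80 and 0.72), PHC2 (0.80 and 0.78), MAP2K3 (0.80 and 0.80), TMEM214 (0.80 and 0.72) and MAPK13 (0.78 and 0.70). These are descriptions over libraries that share genotype and experiment, and the members were left out of the genes compared.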

How the data were processed

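RNA-seq of SCC23 cells was analysed in 14 libraries, grouped by the labels. The authors mapped reads to GRCh38 with HISAT2 and counted them per gene name with featureCounts 2.0.3 on Ensembl 102, primary alignments, no strand (per the file headers); the deposited values are unnormalized counts. Here edgeR 4.0.16 in R 4.3.3 was used (filterByExpr by group, minimum count 10, TMM, quasi-likelihood test, adjusted p under 0.05) with experiment as covariate, on all genes. Experiment numbers were taken from the labels. The shift from experiment 1 to 2 correlated across genes between the genotypes (r = 0.91 with and 0.85 without glucose). In +Glc cells the experiments also differed in how mates were counted, so the correlation cannot show that libraries are paired beyond this. The paper's methods name DESeq2 and state no design. It was run here as an alternative (version 1.42.0), with this covariate and without it. Positions are those of the count files. The members and lists were chosen with earlier results of these data known. Named genes are the members, KMT2D, up to 3 called genes per list and condition with the largest change and at least 1 CPM, and the 5 genes most like ITGB4 and LAMB3. KRT5, LAMA4 and MMP14 levels by library were added after their values were seen, as were the basement membrane genes higher with glucose. Alternatives were other scalings, filters, offsets, designs and single lines or experiments, and each library left out. The fits were tested on simulated data. Depth was 15669154 to 62968057 counts, and only in the alike -Glc pairs of experiment 2 was the spread between libraries close to counting error.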

Additional observations from a re-analysis of the deposited data

Results flagged for a closer look

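In KMT2D-KO cells without glucose, 1 library lay far from the other 3 for LAMA3 and for COL17A1. Both times it was the KO1 library of experiment 1, at 126 CPM of LAMA3 against 63.4 to 69.3 CPM, and at 756 CPM of COL17A1 against 542 to 577 CPM. Among the 18 groups of 4 libraries examined (9 genes in 2 conditions), 2 were so marked, where chance marks about 1 in 20 groups of alike libraries. These groups mix lines and experiments, and the genes share libraries, so that rate is only a rough guide. One of the other 3 libraries carries the label KO1 but resembles KO2.

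The KMT2D-KO effect on ITGB4 differed between the conditions. It was 0.84 higher on the log2 scale without glucose than with it, by the edgeR test of the difference itself.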

How the results depend on the processing

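ITGA3 and COL17A1 kept their call in both conditions, and ITGB4 with glucose, under every alternative run. With each library left out in turn, the members called ranged from 3 to 5 with glucose (10% to 26.1% of all genes), 2 to 6 without (34.3% to 74.4%), 1 to 2 for the change between conditions (4% to 22.5%), 0 to 4 between the lines (4.89% to 19.8%), and 0 for deprivation in experiment 1 (0.96% to 8%). With no filter on low counts 5 were called without glucose (29.4% of all genes), 2 for the change between conditions (6.23%) and 1 for deprivation (3.57%). With no replicate block 0 were called for the change between conditions (0.375%) and 0 between the lines (0.049%), while with and without glucose 3 (4.75%) and 2 (21.8%) were. In experiment 2 alone all 9 were called without glucose, as were 74.5% of all genes, and its spread came from the alike pairs. For deprivation, experiment 2 alone gave 2, where 49.9% of all genes were called, and all 14 libraries 1, where 44.6% were. LAMB3 was called between the lines with no filter and without either +Glc KMT2D-WT library of experiment 2, and without glucose with library size alone and in experiment 2 alone. The cause of these moves was not tested.

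Reversals were all of members whose value was not called in the main comparison, ITGB1 without glucose excepted, and are given as log2 values. Without glucose, ITGA6 was 0.022 with DESeq2, 0.022 with RLE, 0.0048 with length offsets and 0.073 in experiment 2 alone. There LAMB3 was 0.049 with DESeq2, 0.049 with RLE, 0.0093 with length offsets, 0.088 with no replicate block, 0.15 with DESeq2 and no covariate, 0.015 in 1 fit of all libraries and 0.042 with the alike pairs summed, and DST was 0.19 with length offsets and 0.10 in experiment 2 alone. Scaling by library size alone moved the median of all genes to -0.25 without glucose, -0.23 for the change between conditions and -0.16 for deprivation. With it ITGB4 was -0.20 and ITGB1 -0.00099 without glucose, ITGA3 -0.11, ITGB1 -0.19, COL17A1 -0.088 and DST -0.0078 for the change between conditions, and ITGB4 -0.038, ITGA3 -0.11 and LAMB3 -0.12 for deprivation. For deprivation, DST was 0.010 with length offsets. In experiment 2 alone ITGA6 was 0.24, ITGB4 -0.34, ITGA3 -0.014, LAMA3 -0.52, LAMB3 -0.20 and COL17A1 -0.064, and in all 14 libraries ITGA6 was 0.086, ITGB4 -0.14, LAMA3 -0.24 and LAMB3 -0.10. Without line KO1, an alternative added after seeing the data, as GC offsets were, ITGA6 was 0.12, DST 0.11 and PLEC 0.10. PLEC was -0.12 for KO2 alone with glucose, and DST was -0.049 between the lines with length offsets.

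With single libraries left out, values crossed 0 within these ranges: with glucose, LAMB3 -0.42 to 0.053 and PLEC -0.070 to 0.17; without, DST -0.22 to 0.096, ITGA6 -0.11 to 0.064, ITGB4 -0.0058 to 0.11 and LAMB3 -0.099 to 0.051. For the change between conditions they were ITGB1 -0.012 to 0.15 and LAMB3 -0.024 to 0.44, and between the lines DST -0.025 to 0.11 and ITGB1 -0.013 to 0.21. For deprivation they were DST -0.34 to 0.11, ITGA3 -0.060 to 0.16, ITGA6 -0.29 to 0.12, ITGB4 -0.080 to 0.33, LAMB3 -0.069 to 0.14 and PLEC -1.19 to 0.11.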
